A study of Mus musculus with 3 samples.

Results

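The lysyl oxidase family was followed across 3 sorted populations of mouse endosteal cells, the cells along the inner surface of bone. Its members are Lox, Loxl1, Loxl2, Loxl3 and Loxl4, and every probe set whose annotation gives 1 of these symbols alone was taken. That left 8 probe sets for 4 of the 5 genes, out of 18193 genes in all. Both probe sets of Loxl2 also carry the symbol of a second gene, so Loxl2 enters no comparison. Cells were freed with collagenase from thigh and shin bone fragments of C57BL/6 mice, and only those free of the leukocyte antigen CD45, the endothelial antigen CD31 and the erythroid antigen Ter119 were kept. They were sorted by ALCAM, an adhesion molecule of the immunoglobulin superfamily, and Sca-1, an antigen of many immature cells. The groups were ALCAM(+) Sca-1(-) (ALCAM+ for short), ALCAM(-) Sca-1(+) (Sca-1+ for short) and cells lacking both, ALCAM(-) Sca-1(-) (marker-negative for short). Each was hybridised to 1 array, so no difference has a replicate check, there is no test and no p-value, and higher and lower refer to signal on these arrays. How many mice lie behind an array is not stated in the labels.

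Lysyl oxidases are secreted, copper-dependent enzymes. They oxidise lysine side chains of collagens and elastin to aldehydes, which then form the covalent crosslinks that give bone, cartilage, tendon and vessel walls their strength. Lox and Loxl1 are made as pro-enzymes that are cut outside the cell by the protease Bmp1, whereas Loxl2, Loxl3 and Loxl4 carry scavenger receptor domains ahead of the shared catalytic domain.

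The values are MAS5 signals on a linear scale, which summarise the probes of a probe set. A floor of 75.4, the pooled median of the arrays, was taken as the lowest signal used for a fold, and a gene counted as measured if its brightest probe set lay above it on at least 1 array, as 12643 genes did. A difference of at least 4-fold, or 2 on the log2 scale, was the size rule for counting. Alcam gave 267.7 in ALCAM+ cells, 41.1 in Sca-1+ cells and 36.3 in marker-negative cells, and all 4 Alcam probe sets that passed the floor anywhere peaked in ALCAM+ cells. Ptprc, the gene of CD45, gave 11.6, 163 and 159 in the same order, and Pecam1, the gene of CD31, did not reach the floor on any array. Osteoblast markers had a summed signal of 145597 in ALCAM+ cells, 9976 in Sca-1+ cells and 46628 in marker-negative cells, and chondrocyte markers 200814, 4604 and 174013. In ALCAM+ against Sca-1+ cells 7 of 7 measured osteoblast and 8 of 8 chondrocyte genes were at least 4-fold higher (3.99% of all measured genes). Cartilage transcripts were thus strong on the ALCAM+ and marker-negative arrays besides those of bone. Fibroblast and mesenchymal progenitor markers summed to 5677, 97862 and 2549, and 9 of 9 passed 4-fold upward in Sca-1+ cells against marker-negative cells (5.46% of all measured genes). Pericyte and smooth muscle markers summed to 10277, 9833 and 16266, with Cspg4 the largest part on the ALCAM+ and marker-negative arrays (8932, 3278 and 10408). In ALCAM+ against marker-negative cells 0 of these markers were higher (2.01% of all measured genes) and 1 lower (2.67%), Tagln (9.34-fold, 189 against 1768). In Sca-1+ against marker-negative cells 1 was higher (5.46% of all measured genes), Rgs5 (8.45-fold), and 1 lower (4.71%), Tagln (8.06-fold). Other Rgs5 probe sets did not reach 2-fold there. In ALCAM+ against Sca-1+ cells Rgs5 was at least 30.9-fold lower, the 1 marker of the list past 4-fold (5.86% of all measured genes lower). Its other probe sets did not reach 2-fold in that comparison either. Macrophage and osteoclast markers summed to 7505, 10919 and 4090.1, mostly Ctsk (6778, 9739 and 3290). In these bulk samples, fewer cells of a type and less RNA per cell cannot be told apart.

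The 4 genes had 4 different profiles. Lox and Loxl4 were highest in ALCAM+ cells, Loxl1 in Sca-1+ cells and Loxl3 in marker-negative cells. Lox and Loxl4 parted in Sca-1+ cells, where Lox lay between the other populations and Loxl4 was at its lowest. In ALCAM+ against marker-negative cells 2 of 4 members were at least 4-fold higher (2.01% of all measured genes) and 0 lower (2.67%), and the median log2 difference was 0.65 against -0.03 over all measured genes. In Sca-1+ against marker-negative cells 1 was higher (5.46%) and 1 lower (4.71%), with a median of -0.11 against 0.00. In ALCAM+ against Sca-1+ cells 1 was higher (3.99%) and 1 lower (5.86%), with a median of 1.05 against -0.01. Counted at 2-fold, 2 members were higher (6.68%) and 1 lower (10.6%) in the first comparison, 2 higher (15.0%) and 2 lower (12.7%) in the second, and 2 higher (11.2%) and 1 lower (15.8%) in the third. The comparisons share arrays, and the third is the difference of the other two. With 4 genes, these counts describe the members singly rather than a shift of the family.

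**Figure D1:**
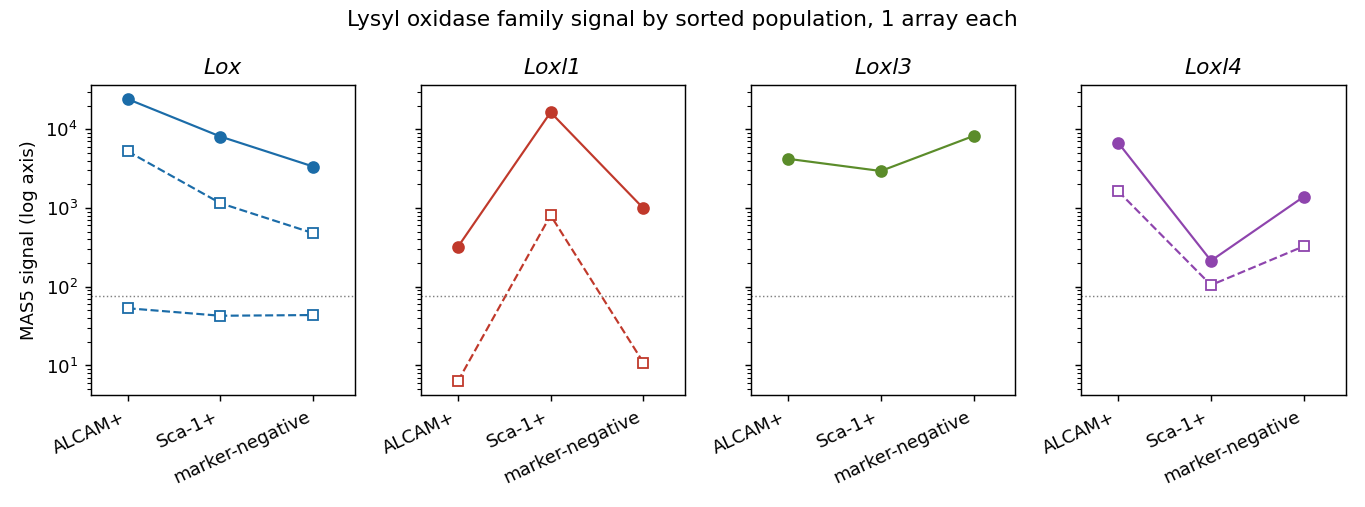
MAS5 signal on a log axis of each probe set of Lox, Loxl1, Loxl3 and Loxl4 by population, 1 array each. Filled circles are the brightest probe set of the gene, open squares the others, the dotted line is the floor of 75.4, and lines only join the points of a probe set. Lox peaks in ALCAM+ cells, Loxl1 in Sca-1+ cells, Loxl3 in marker-negative cells, and Loxl4 is high in ALCAM+ cells and lowest in Sca-1+ cells.

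Lox, the founding member and the main crosslinking enzyme of fibrillar collagen and elastin, had signals of 24173 in ALCAM+ cells, 8081 in Sca-1+ cells and 3362 in marker-negative cells for its brightest probe set (1416121_at). A second probe set (1448228_at) gave 5246, 1150.4 and 479 and kept the same order. The third (1437903_at) did not reach the floor on any array (53.3, 42.8 and 43.7) and says nothing of the order. Lox was 7.19-fold higher in ALCAM+ cells than in marker-negative cells by the first probe set and 11.0-fold by the second. In that direction 115 of 12643 measured genes differed at least as much, and the log2 difference of 2.85 stayed past the size rule under the alternatives, at 2.10 or more. Sca-1+ against marker-negative cells differed by 2.40-fold in both probe sets, short of the size rule. ALCAM+ was 2.99-fold higher than Sca-1+ by the first probe set and 4.56-fold by the second, so this comparison falls on either side of 4-fold according to the probe set.

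Loxl4, a member with scavenger receptor domains, had signals of 6709 in ALCAM+ cells, 214 in Sca-1+ cells and 1391.5 in marker-negative cells (1421153_at). Its other probe set (1450134_at) gave 1627, 105 and 326.5, again with ALCAM+ at the top and Sca-1+ at the bottom. It was 4.82-fold higher in ALCAM+ cells than in marker-negative cells, or 4.98-fold by the other probe set. It was 6.51-fold lower in Sca-1+ cells than in marker-negative cells, and 3.11-fold by the other probe set, which does not reach the size rule. Between ALCAM+ and Sca-1+ cells the gene was 31.4-fold higher in ALCAM+, or 15.5-fold by the other probe set, and 57 measured genes were at least as far apart in that direction. That log2 difference of 4.97 was 3.95 with the floor at the 75th percentile. The 4-fold call against marker-negative cells was lost for ALCAM+ when arrays were scaled on spiked-in poly-A RNA (log2 difference 1.67) or hybridization controls (1.77), and for Sca-1+ when the floor was raised to the 75th percentile (-1.68).

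Loxl4 is the 1 member with a RefSeq promoter sequence in the reference used here, and it is shown for that reason. The window runs from 250 bases before to 50 bases after the annotated start, at chr19:42612757-42613056 on the minus strand of GRCm38.p6, and capitals mark the motifs found.
Loxl4 promoter: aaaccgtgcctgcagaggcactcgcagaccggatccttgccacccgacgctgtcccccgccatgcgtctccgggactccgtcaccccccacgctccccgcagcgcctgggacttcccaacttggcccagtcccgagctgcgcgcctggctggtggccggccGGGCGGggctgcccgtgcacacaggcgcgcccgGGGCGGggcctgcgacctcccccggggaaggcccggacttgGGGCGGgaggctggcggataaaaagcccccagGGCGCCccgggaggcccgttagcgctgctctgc
G and C make up 75% of the window, against a median of 52.7% over 32851 windows of that length, of which 3.91% were at least as rich. The GC box core GGGCGG occurs 3 times, 89, 56 and 15 bases before the start, and on either strand 35.7% of all windows hold it at least once and 10.7% at least 3 times. The SMAD-associated element GGCGCC occurs once, 18 bases after the start, and is in 11.9% of windows. No match was found on either strand for TATAAA (in 13.6% of windows), CCAAT (37.4%), the hypoxia response core ACGTG (19.6%) or the SMAD element GTCTAGAC (0.213%), which says only that these letters are not in this window. No motif found overlapped another, and no binding was measured.

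Loxl1, the member tied to elastic fibres and to the scaffold protein fibulin-5, was the analysed member that peaked in Sca-1+ cells. Its brightest probe set (1451978_at) gave 320.0 in ALCAM+ cells, 16408 in Sca-1+ cells and 992 in marker-negative cells. The second (1436063_at) gave 6.3, 807 and 10.9, so only the Sca-1+ signal was above the floor. The gene was 16.5-fold higher in Sca-1+ cells than in marker-negative cells, a difference that 95 of 12643 measured genes matched or passed, and at least 10.7-fold higher by the second probe set. ALCAM+ cells were 51.3-fold lower than Sca-1+ cells, or at least 10.7-fold by the second probe set, and 38 measured genes were at least as far apart in that direction. That log2 difference of -5.68 lay between -6.61 and -4.55 under the alternatives. Against marker-negative cells ALCAM+ was 3.10-fold lower, which passed 4-fold only under the spike-in scalings (log2 difference -2.23 on poly-A RNA and -2.13 on hybridization controls) and shrank to -0.82 with probe sets averaged.

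Loxl3, whose loss in mice causes cleft palate and spinal defects, varied least of the 4. Its single probe set (1418269_at) gave 4209 in ALCAM+ cells, 2948 in Sca-1+ cells and 8210.2 in marker-negative cells. It was 1.95-fold lower in ALCAM+ and 2.79-fold lower in Sca-1+ cells than in marker-negative cells, neither past 4-fold, and 1420 and 938 measured genes were at least as low. The 1.43-fold difference between ALCAM+ and Sca-1+ cells turned round under both spike-in scalings, from a log2 difference of 0.51 as reported to -0.42 on poly-A RNA and -0.28 on hybridization controls. The highest signal of Loxl3 lay in the population in which 4 of 4 measured genes of dividing cells were at least 4-fold above both others, with summed signals of 937 in ALCAM+ cells, 1000.7 in Sca-1+ cells and 18858 in marker-negative cells. Erythroid genes did the same in 5 of 5 cases, summing to 358, 239 and 15761. Of all measured genes 2.67% were at least 4-fold lower in ALCAM+ cells than in marker-negative cells, and 4.71% in Sca-1+ cells. The part of dividing or erythroid cells in the Loxl3 signal was not tested.

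**Figure D2:**
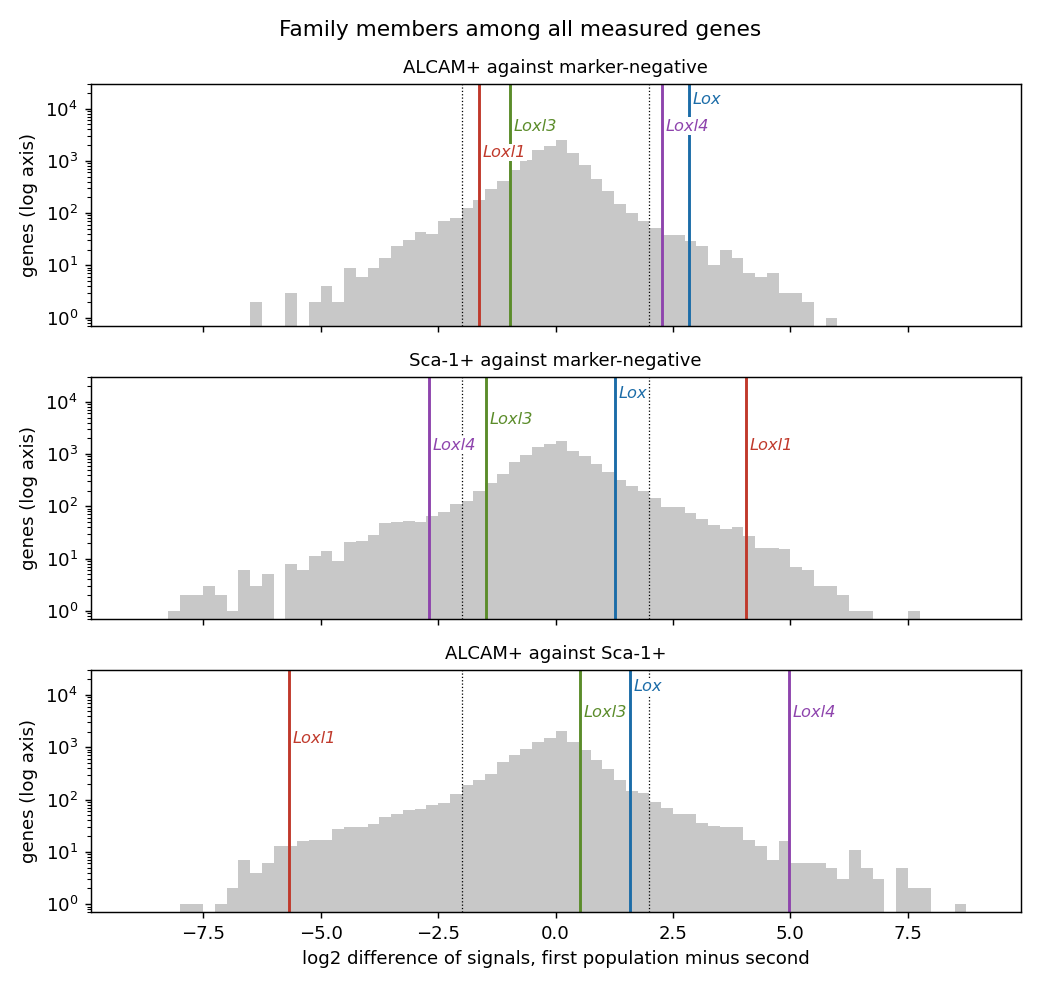
Log2 differences of Lox, Loxl1, Loxl3 and Loxl4 (coloured lines) over the histogram of all 12643 measured genes, counts on a log axis, in the 3 comparisons. Dotted lines mark 4-fold. Loxl1 and Loxl4 lie on opposite sides in each comparison, at -5.68 and 4.97 in ALCAM+ against Sca-1+ cells.

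The ratio of 2 members within an array does not change when an array is multiplied by 1 factor. The ratio of Loxl4 to Loxl1 signal changed by 10.65 on the log2 scale between ALCAM+ and Sca-1+ cells, 1608-fold, in favour of Loxl4 in ALCAM+ cells. It was 9.01 with all probe sets averaged and 9.19 with the floor at the 75th percentile, so its size depends on the probe sets and the floor chosen. Loxl4 in Sca-1+ cells (214) and Loxl1 in ALCAM+ cells (320.0) lie below that raised floor. The ratio of Lox to Loxl1 changed 153-fold between the same populations, towards Lox in ALCAM+ cells, a log2 change of 7.26 that was 5.81 with probe sets averaged. The ratio of Lox to Loxl4 differed by 1.49-fold between ALCAM+ and marker-negative cells, with a direction that turned round with probe sets averaged (log2 change -0.19), unlike in Sca-1+ against marker-negative cells, where the ratio moved 15.6-fold towards Lox. Such changes are unequal signal between 2 genes and do not say which of them was stable. As a measure of probe set error, 2 probe sets of a gene were compared for 4152 genes above the floor throughout, and their log2 differences disagreed with an SD of 0.54 for ALCAM+ against marker-negative, 0.67 for Sca-1+ against marker-negative and 0.75 for ALCAM+ against Sca-1+ cells. The spread between sorts and mice was not measured.

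The poly-A spike-in controls had a geometric mean of 1457 in ALCAM+ cells, 763 in Sca-1+ cells and 960.3 in marker-negative cells, although the authors' scaling set a 2% trimmed mean of 500 on each array. Scaling on them moves the median of all measured genes to -0.55, 0.28 and -0.87 in the 3 comparisons, and scaling on the hybridization controls to -0.46, 0.24 and -0.74. Under these scalings the log2 difference of Lox between ALCAM+ and Sca-1+ cells was 0.65 and 0.79, against 1.58 as reported. The genes counted in ALCAM+ against marker-negative cells, 254 higher and 338 lower, became 149 and 632 on poly-A RNA and 163 and 559 on hybridization controls, and 122 and 86 with the floor at the 75th percentile. In ALCAM+ against Sca-1+ cells 504 and 741 became 264 and 1687, and 288 and 1437, under the spike-in scalings.

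**Figure D3:**
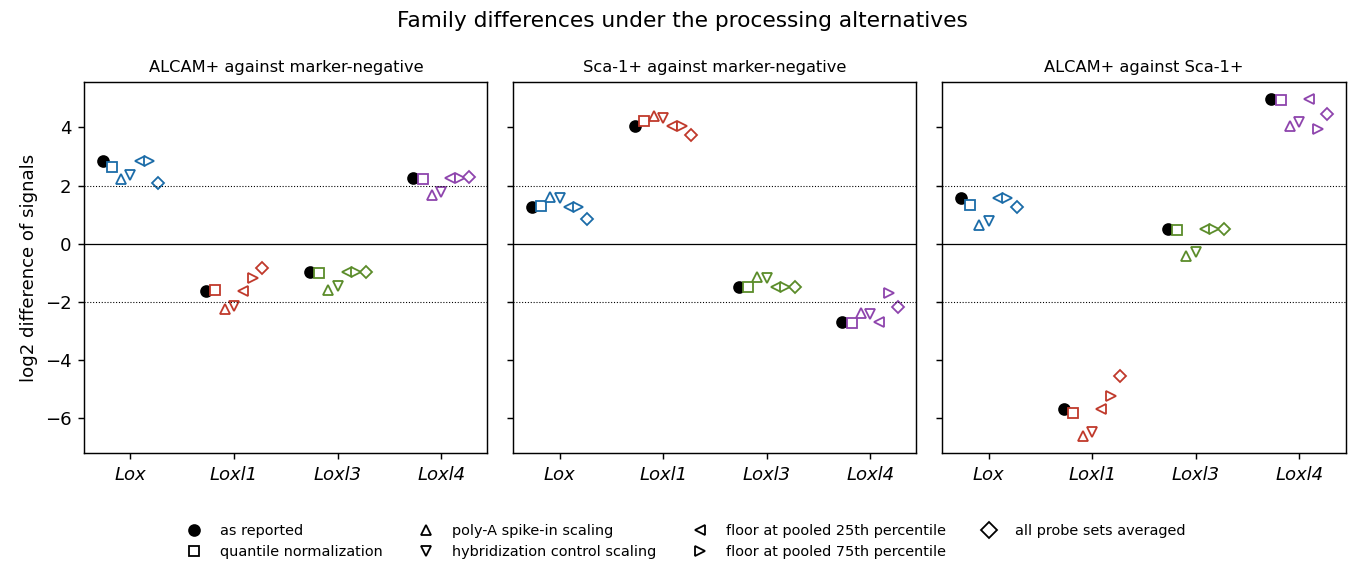
Log2 difference of each member in the 3 comparisons as reported (black) and under 6 alternatives (open symbols), with dotted lines at 4-fold. Lox, Loxl1 and Loxl4 keep their direction in every comparison under these alternatives, and Loxl3 changes sign between ALCAM+ and Sca-1+ cells under the spike-in scalings.

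The substrates came next. Of 11 fibrillar collagen genes, all measured, 1 passed 4-fold upward (2.01% of all measured genes) and 0 downward (2.67%) in ALCAM+ cells against marker-negative cells, and the median log2 difference was 0.42. It was Col24a1, a minor collagen of forming bone, 10.4-fold apart at 3285 in ALCAM+ cells and 316 in marker-negative cells. Col1a1, the main chain of bone collagen, gave 49506 in ALCAM+ cells, 7959 in Sca-1+ cells and 13081 in marker-negative cells, a 3.78-fold difference between ALCAM+ and marker-negative cells. In Sca-1+ against marker-negative cells 1 was higher (5.46%) and 5 lower (4.71%), with a median of -0.72. The cartilage chains Col11a2 (70.0-fold), Col2a1 (22.2-fold) and Col11a1 (21.4-fold) were among the lower ones, with Col27a1 (18.9-fold) and Col24a1 (at least 4.19-fold). Col5a3, a chain of type V collagen, was the higher one, at 5323 in Sca-1+ against 225 in marker-negative cells (23.7-fold). Between ALCAM+ and Sca-1+ cells 6 were higher (3.99% of all measured genes) and 1 (5.86%), Col5a3, lower (40.6-fold), with a median of 2.64.

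Most measured elastic fibre genes had their highest signal where Loxl1 had it. Of 10 measured genes of 12 listed (Fbn1 and Efemp2 were not analysed here), 6 passed 4-fold upward (5.46% of all measured genes) and 0 downward (4.71%) in Sca-1+ cells against marker-negative cells, and the median log2 difference was 3.26. Eln, which encodes elastin, gave 107 in ALCAM+ cells, 2264 in Sca-1+ cells and 234 in marker-negative cells, 9.68-fold higher in Sca-1+ cells than in marker-negative cells. Fbln5, which encodes fibulin-5, gave 177, 6727 and 570.5 (11.8-fold). The others were the microfibril gene Mfap5 (84.1-fold), Fbln2 (24.5-fold), Ltbp4, a latent TGF-beta binding protein gene needed for elastic fibres (23.1-fold), and Fbln1 (9.46-fold). In ALCAM+ against Sca-1+ cells the median was -4.49, and 7 passed 4-fold downward (5.86%) and 1 upward (3.99%). The lower ones were those 6 and the microfibril gene Mfap4, at 59.3 in ALCAM+ against 1140.7 in Sca-1+ cells (at least 15.1-fold). In ALCAM+ against marker-negative cells 1 was lower (2.67%), Ltbp4 (at least 4.50-fold), and 1 higher (2.01%). The higher one in both was Fbn2, the fibrillin gene of developing tissue, at 1656.5 in ALCAM+ cells, 104 in Sca-1+ cells and 122 in marker-negative cells. In comparisons with Sca-1+ cells, the fibroblast markers moved the same way as Loxl1 and most of these genes (Mfap5 is in both lists). Between ALCAM+ and marker-negative cells the fibroblast list had a median of 0.00, with 1 marker past 4-fold upward (2.01%) and 1 downward (2.67%). Pdgfra rose 7.63-fold there (5121.8 against 671.5), Cd34 fell by 5.67-fold or more, and Loxl1 fell 3.10-fold. Where Sca-1+ cells were compared, 5 of 8 neutrophil and myeloid markers also moved as Loxl1 did. Their list summed to 395 in ALCAM+ cells, 14639 in Sca-1+ cells and 3112 in marker-negative cells. The granule genes Mpo (14.8-fold) and Elane (at least 6.41-fold) of that list were lower in Sca-1+ cells than in marker-negative cells. The part of these marker lists in the result was not tested. Of the endothelial markers, Pecam1, Cdh5 and Emcn were below the floor on the 3 arrays, and the list summed to 217, 759.7 and 238. Most of the Sca-1+ sum came from Tek, with 28.8 in ALCAM+ cells, 630.6 in Sca-1+ cells and 18.8 in marker-negative cells. Of the 3 measured markers only Tek passed 4-fold, upward in Sca-1+ cells against either other population, with 8.36-fold as the lower bound. The part of endothelial cells in the Loxl1 signal was not tested.

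**Figure D4:**
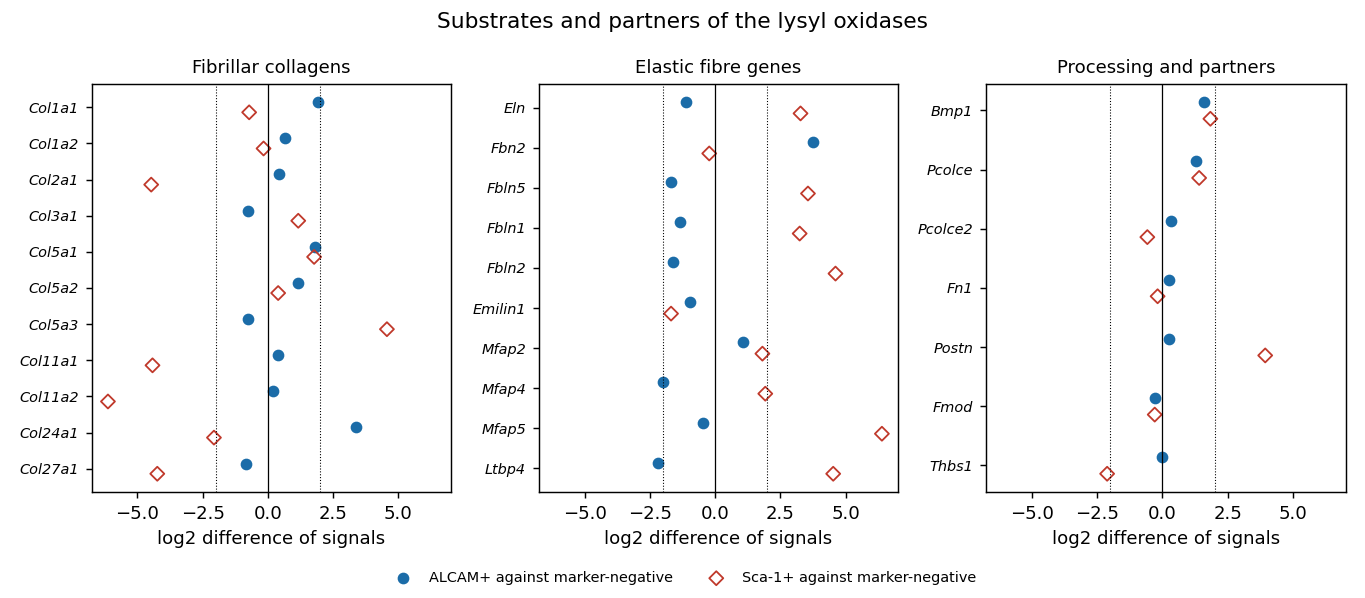
Log2 differences of measured fibrillar collagen genes, elastic fibre genes and genes of pro-enzyme processing and matrix partners, for ALCAM+ against marker-negative (filled circles) and Sca-1+ against marker-negative cells (open diamonds), with dotted lines at 4-fold. Col2a1, Col11a1, Col11a2 and Col27a1 lie far to the left for Sca-1+ cells, and Mfap5, Fbln2, Ltbp4, Fbln5, Eln and Fbln1 far to the right.

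Genes that process the pro-enzymes or bind them in matrix came to 7 measured of 11 listed. In ALCAM+ against marker-negative cells 0 were past 4-fold (2.01% of all measured genes higher, 2.67% lower), with a median of 0.24. In Sca-1+ against marker-negative cells 1 was higher (5.46%) and 1 lower (4.71%), with a median of -0.18, and in ALCAM+ against Sca-1+ cells 1 was higher (3.99%) and 1 lower (5.86%), with a median of 0.00. Bmp1, the protease that cuts the Lox and Loxl1 pro-enzymes, gave 6020.4 in ALCAM+ cells, 7088 in Sca-1+ cells and 1979 in marker-negative cells, 3.04-fold and 3.58-fold above marker-negative cells. Pcolce, an enhancer of that protease on procollagen, gave 26695, 29045 and 10930.3. Between ALCAM+ and Sca-1+ cells, where Lox was higher and Loxl1 lower in ALCAM+ cells, these 2 genes were 1.18-fold and 1.09-fold lower in ALCAM+ cells. Postn, the matrix protein periostin, was 15.4-fold higher in Sca-1+ cells than in marker-negative cells, at 17957 against 1168, and Thbs1, which encodes thrombospondin-1, was 4.34-fold lower. In ALCAM+ against Sca-1+ cells Thbs1 was 4.33-fold higher and Postn 13.0-fold lower. Tll1 and Tll2, relatives of Bmp1, were below the floor on the 3 arrays, and Adamts2 and Adamts14 were not analysed here.

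Of 8 copper supply genes, all measured, 1 was lower and 0 higher in ALCAM+ against marker-negative cells (2.67% and 2.01% of all measured genes), with a median of 0.01. Likewise 1 was lower and 0 higher in Sca-1+ against marker-negative cells (4.71% and 5.46%), with a median of -0.27, and 0 were past 4-fold in ALCAM+ against Sca-1+ cells (3.99% higher, 5.86% lower). That gene was Atp7b, a copper exporter of liver, at 37.7 in ALCAM+ cells, 42.7 in Sca-1+ cells and 458 in marker-negative cells (at least 6.07-fold in both). A second Atp7b probe set did not reach 2-fold for ALCAM+ cells and ran the opposite way for Sca-1+ cells. Atp7a, the pump that loads copper into secreted enzymes, gave 1290 in ALCAM+ cells, 1303 in Sca-1+ cells and 1428 in marker-negative cells, and its chaperone gene Atox1 gave 3130.3, 4057.5 and 2401. Slc31a1, the copper importer, gave 3323, 1084 and 2614. The signals of these 3 genes differed by less than 4-fold while Loxl1 and Loxl4 ranged over 51.3-fold and 31.4-fold.

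Lysyl hydroxylases modify the collagen lysines that lysyl oxidases act on. The list of these enzymes and their partners had 0 of 7 measured genes past 4-fold in the 3 comparisons (Fkbp10 was not analysed here). In these comparisons 2.01%, 5.46% and 3.99% of all measured genes were higher and 2.67%, 4.71% and 5.86% lower. Plod2, the hydroxylase of collagen telopeptides, gave 16247 in ALCAM+ cells, 4208 in Sca-1+ cells and 14913 in marker-negative cells, 3.86-fold higher in ALCAM+ cells than in Sca-1+ cells. P3h1, a prolyl hydroxylase of collagen, gave 6547, 1704 and 6028. The median of the list was 0.10 in ALCAM+ against marker-negative, -0.90 in Sca-1+ against marker-negative and 0.54 in ALCAM+ against Sca-1+ cells.

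Among other amine oxidases, 4 of 7 listed genes were measured. In ALCAM+ against marker-negative cells 1 was higher (2.01% of all measured genes) and 0 lower (2.67%), in Sca-1+ against marker-negative cells 1 higher (5.46%) and 0 lower (4.71%), and in ALCAM+ against Sca-1+ cells 1 higher (3.99%) and 2 lower (5.86%). Aoc3, a membrane copper amine oxidase of vessels and fat, was 37.7-fold higher in Sca-1+ cells than in marker-negative cells, at 3396 against 90.2, with 30.9 in ALCAM+ cells. Smox, the spermine oxidase, was 4.55-fold higher in ALCAM+ cells than in marker-negative cells, at 5470.2 against 1202, with 587 in Sca-1+ cells, but its second probe set did not reach 2-fold there. In ALCAM+ against Sca-1+ cells Smox was 9.32-fold higher and Aoc3 at least 45.0-fold lower. Maob, a mitochondrial monoamine oxidase, was 5.13-fold lower in ALCAM+ than in Sca-1+ cells, at 343 against 1756.

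Of 12 genes listed as reported regulators or targets of the family, all measured, 0 were past 4-fold in ALCAM+ against marker-negative cells (2.01% of all measured genes higher, 2.67% lower), with a median of 0.17. In Sca-1+ against marker-negative cells 2 were higher (5.46%) and 0 lower (4.71%), with a median of 0.37. Those were Bmp4 (8.58-fold) and Pdgfrb, the receptor gene for PDGF-B (7.67-fold). Tgfb1, the growth factor known to raise Lox, gave 2699.5 in ALCAM+ cells, 409 in Sca-1+ cells and 1395 in marker-negative cells, 6.60-fold higher in ALCAM+ cells than in Sca-1+ cells. A second Tgfb1 probe set did not reach 2-fold in that comparison and ran the opposite way in ALCAM+ against marker-negative cells. In ALCAM+ against Sca-1+ cells 1 gene of the list, Tgfb1, was higher (3.99%) and 2 were lower (5.86%), Bmp4 (18.2-fold) and Pdgfrb (20.8-fold), with a median of -0.15. Hif1a, the hypoxia factor gene, gave 17864, 9789 and 15669.

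The genes whose profile came closest to each member were sought among 9879 genes above the floor on all 3 arrays, by the Euclidean distance between the 3 log2 signals after subtracting each gene's mean. Nearest to Lox were Ptpre, a tyrosine phosphatase gene (distance 0.04), Pdzd2 (0.13) and Slc24a3, an ion exchanger gene (0.14), and 116 genes lay within 1. Nearest to Loxl1 were Enpep, an aminopeptidase gene (0.06), the receptor kinase gene Axl (0.18) and the matrix gene Ecm1 (0.27), and 72 genes lay within 1. Nearest to Loxl4 were Bmp8a (0.32), Cthrc1, a secreted protein gene (0.43), and Sp7, the osteoblast transcription factor osterix (0.45), with 19 genes within 1. Sp7 gave 2868 in ALCAM+ cells, 77.7 in Sca-1+ cells and 779 in marker-negative cells, and Cthrc1 24286, 1150.5 and 5409. Loxl3 had Plk4, a centriole kinase gene (0.015), Ppip5k2 (0.02) and the splicing gene Snrpf (0.02) nearest, but its shallow profile had 3361 genes within 1. With 3 arrays, close matches arise readily among so many genes.

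**Figure D5:**
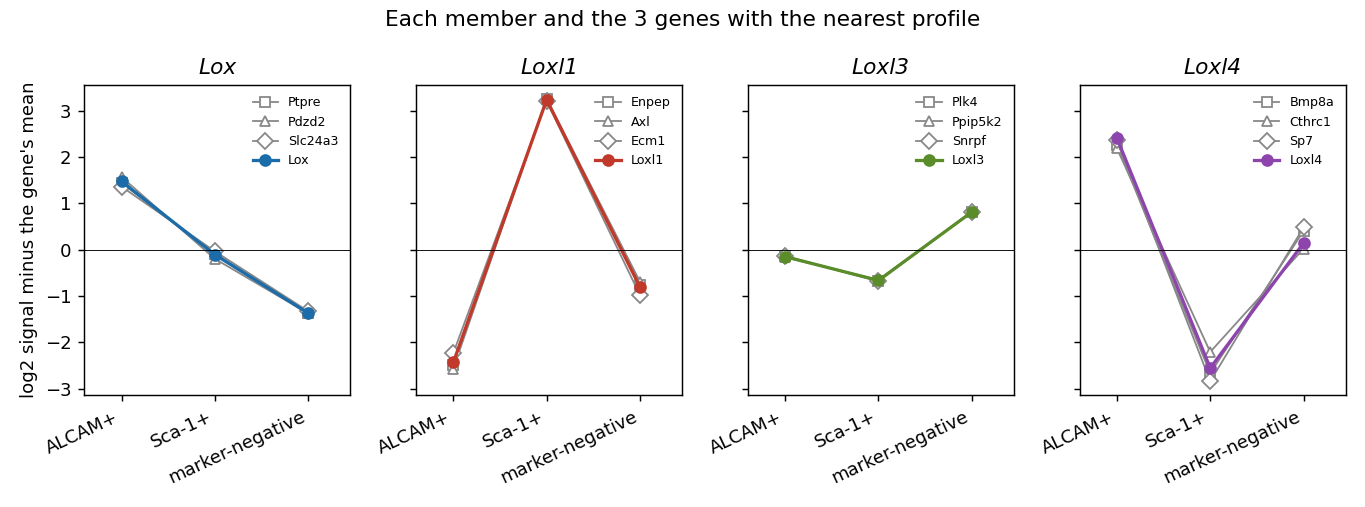
Log2 signal minus the gene's mean over the 3 arrays for each member (coloured) and its 3 nearest genes (grey), by population. The profiles of Enpep, Axl and Ecm1 follow Loxl1 closely, and those of Bmp8a, Cthrc1 and Sp7 follow Loxl4 at distances of 0.32 to 0.45.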

How the data were processed

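Endosteal RNA of 3 sorted populations was measured on 1 array each. Per the labels' protocols, a 2-cycle assay turned TRIzol-extracted RNA into biotin-labelled cRNA, which amplifies small amounts and favours 3' ends. The deposited values are linear signal intensities that the authors computed with MAS5, as the submitters' processing notes name it (version not given in the sources used here). They were used as scaled, so total RNA per cell cannot be compared.

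Of 45101 probe sets 64 are controls, 34945 had 1 gene symbol in the array's annotation, 932 several and 9160 none listed. Symbols were updated through RefSeq (GRCm38.p6, names only), which held 34741 of the identifiers and changed 0. Each gene took the values of its brightest probe set by mean signal, raised to the floor and turned to log2 in Python 3.11.15 with pandas 2.3.3. With 1 array per population, the number of arrays limits the precision and no test was made.

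Named are all members, list genes at least 4-fold apart with up to 4 more of the largest differences, and the 3 nearest profiles; some list genes were chosen for their role after values were seen. Members and lists were chosen with earlier results of these data known. Alternatives were quantile normalization, both spike-in scalings, floors at the pooled 25th (21.1) and 75th (433.9) percentiles, averaged probe sets and a 2-fold rule. Applying them to ratios of members was chosen after seeing the data.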

Additional observations from a re-analysis of the deposited data

How the results depend on the processing

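The direction of Lox, Loxl1 and Loxl4 held in the 3 comparisons under the 6 alternatives to the signals, and 67 of 72 values of the 4 members stayed on the same side of 4-fold and 5 crossed it. On poly-A or hybridization controls, Loxl1 in ALCAM+ against marker-negative cells passed it (-2.23 and -2.13), Loxl4 there did not (1.67 and 1.77), and Loxl3 in ALCAM+ against Sca-1+ cells reversed (-0.42 and -0.28), as follows from moving all genes of an array together. With the floor at the 75th percentile Loxl4 in Sca-1+ against marker-negative cells was at -1.68, since its Sca-1+ signal of 214 lies below that floor, so 0 members were lower there. Under both spike-in scalings 1 member was higher and 1 lower in ALCAM+ against marker-negative cells. With a 2-fold rule, 1 member was lower in that comparison, 2 were higher and 2 lower in Sca-1+ against marker-negative cells, and 2 were higher in ALCAM+ against Sca-1+ cells.

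Over all measured genes, ALCAM+ against marker-negative cells gave 149 higher and 632 lower on poly-A controls, 163 and 559 on hybridization controls, 122 and 86 with the floor at the 75th percentile, 168 and 194 with probe sets averaged, and 845 and 1339 at 2-fold, and 584 lower with the floor at the 25th. Sca-1+ against marker-negative cells gave 345 and 223 with the higher floor, 459 higher with probe sets averaged, and 1894 and 1606 at 2-fold. ALCAM+ against Sca-1+ cells gave 264 and 1687 on poly-A controls, 288 and 1437 on hybridization controls, 256 and 356 with the higher floor, and 1416 and 1999 at 2-fold. The change in the ratio of Lox to Loxl4 between ALCAM+ and marker-negative cells reversed with probe sets averaged (-0.19 against 0.58); ratio alternatives were added after seeing the data. No paired analysis was possible because each population has 1 array. Signals near or below the floor, such as the second probe set of Loxl1 outside Sca-1+ cells, give bounds only.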

Other observations

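The 2 probe sets annotated to both Gm21451 and Loxl2 were assigned to neither gene, since the annotation does not tell the genes apart. Loxl2 lies on chromosome 14. The brighter (1431004_at) gave 18253 in ALCAM+ cells, 6727 in Sca-1+ cells and 5997 in marker-negative cells, and the other (1452436_at) gave 2516, 507 and 1038. Both were highest in ALCAM+ cells, by 3.04-fold and 2.43-fold over marker-negative cells and by 2.71-fold and 4.97-fold over Sca-1+ cells. They differed on Sca-1+ against marker-negative cells, with log2 differences of 0.17 and -1.03.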
